A study of Mus musculus with 2 samples.

Results

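The genes of the cytosolic translation initiation and elongation factors were described in mouse heart, from long reads that were each taken as 1 RNA molecule. Members were the autosomal protein-coding genes whose symbol begins with Eef or with Eif followed by a digit from 1 to 6, and which had reads in both libraries. Of 66 such genes in the annotation, 61 were members, among 12561 annotated genes with reads in both libraries. Eif3j2 had 0 reads in replicate 1 and 2 in replicate 2, and the other 4, Eef1akmt3, Eif2ak2, Eif4e1b and Eif4ebp3, had 0 reads in both. A count of 0 allows up to 3.49 CPM (reads scaled to a library of 1000000) in replicate 1 and 4.24 CPM in replicate 2, for counting error only.

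The RNA came from untreated heart of B6CASTF1/J females, F1 animals with 1 C57BL and 1 CAST parent, at an age of 2 months. There was 1 group, heart, with 2 biological replicates and 1 library each, made from 2 µg of total RNA with SIRV and ERCC spike-ins. The sample labels numbered the animals 3 and 4, but the library text named animal 3 for both, and the donor identifier was the same. Whether the spread between the libraries is that between 2 animals was therefore not settled, and the p-values compare the reads of 2 libraries, with counting error only except in the edgeR test, which adds a preset variation.

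Initiation brings the ribosome to the start codon of an mRNA. The eIF4F complex, made of the cap-binding eIF4E, the scaffold eIF4G and the helicase eIF4A, recruits a small ribosomal subunit that carries eIF1, eIF1A, eIF3, eIF5 and the initiator tRNA bound to eIF2 and GTP. Elongation then repeats a cycle in which eEF1A delivers aminoacyl-tRNA, eEF1B recharges eEF1A with GTP, and eEF2 moves the ribosome by a codon. Stress kinases that phosphorylate eIF2, the eIF4E-binding proteins and the kinase of eEF2 slow these steps. Eef1a1 and Eef1a2 both encode eEF1A, and Eef1a2 is known to be used in adult heart and skeletal muscle.

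The reads also showed short stretches that were spliced in or out. The ones within coding sequence that are a cassette exon or an acceptor shift of 3 bases are printed here because their use is measured further on. Each is the sense strand as spliced, 5′ to 3′, from the annotated transcripts of GENCODE M21 (build mm10). Capitals mark the optional stretch, whose coordinates are given, and lower case marks 12 bases of the exon before and after it.
Eif4h, chr5:134624441-134624500, minus strand: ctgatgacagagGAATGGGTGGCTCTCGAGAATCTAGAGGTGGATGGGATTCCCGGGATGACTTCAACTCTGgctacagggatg
Eif4g2, chr7:111076280-111076393, minus strand: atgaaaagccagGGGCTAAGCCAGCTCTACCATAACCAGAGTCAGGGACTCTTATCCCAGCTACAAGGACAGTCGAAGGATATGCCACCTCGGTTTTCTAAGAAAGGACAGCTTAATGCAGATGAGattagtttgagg
Eef1d, chr15:75900691-75900762, minus strand: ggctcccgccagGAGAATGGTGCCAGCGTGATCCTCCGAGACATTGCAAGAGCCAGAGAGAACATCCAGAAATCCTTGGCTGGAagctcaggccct
Eef1d, chr15:75897226-75897282, minus strand: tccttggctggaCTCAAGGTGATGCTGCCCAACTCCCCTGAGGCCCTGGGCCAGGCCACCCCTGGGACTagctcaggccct
Eif4enif1, chr11:3233988-3234059, plus strand: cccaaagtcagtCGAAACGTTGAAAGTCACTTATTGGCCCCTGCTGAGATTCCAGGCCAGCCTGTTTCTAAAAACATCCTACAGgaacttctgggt
Eif4a2, chr16:23108585-23108587, plus strand: ggattacaacagCAGagaacatggcgg
Eif4g1, chr16:20681734-20681736, plus strand: ccccgagggccgCAGgctggcctggga

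Replicate 1 held 859191 reads on annotated genes and replicate 2 held 707758, so that 1 read was worth 1.16 CPM and 1.41 CPM. CPM was taken over the reads of annotated genes without spike-ins. Since 1 read was taken as 1 transcript, levels were compared between genes with no division by length. Whether the recovery of reads depended on transcript length was not tested. A Wilson 95% interval is given with a share of reads. The heart markers were present, with 7 of 7 cardiomyocyte genes at a summed 44974 CPM in replicate 1 and 47574 CPM in replicate 2. Of these 7, 3 passed the test between libraries, Myh6 higher in replicate 2 (log2 ratio 0.19) and Myl2 and Pln lower (-0.28 and -0.19). The skeletal muscle list summed to 447 and 451 CPM, nearly all of it from Acta1 with 380 and 316 reads (mean 444 CPM). Myh1, Myh2, Myh4, Tnnt3 and Myod1 of that list had 0 reads in both libraries. The neuron list summed to 2.33 and 5.65 CPM. Adipocyte markers summed to 386 CPM in replicate 1 and 157 CPM in replicate 2, with 4 of 5 having reads and Lep at 0, and 2 of the 3 tested were called lower in replicate 2. Red cell markers summed to 32227 and 29577 CPM, and 2 of 5 passed the test, lower in replicate 2. The part of these markers in the ratios between libraries was not tested.

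Translation factor genes held 6815 reads in replicate 1, or 0.793% of reads on annotated genes (0.775% to 0.812%), and 5728 reads in replicate 2, or 0.809% (0.789% to 0.83%). The intervals overlapped. In tissue RNA, fewer cells of a type and less RNA per cell cannot be told apart. Mean levels ran from 1.99 to 1149 CPM with a median of 76.3 CPM, beside a median of 19.5 CPM over the 11489 protein-coding genes with reads in both libraries. Of the 61 members, 22 had a mean of at least 100 CPM, 26 lay between 30 and 100 CPM, and 13 lay below 30 CPM. The 3 highest members, Eif1, Eif4g2 and Eif5a, held 32.4% of the members' reads in replicate 1 and 32.3% in replicate 2. Their leading annotated models have 1322, 7995 and 1343 bases in the annotation, and the lengths of the reads themselves were not measured.

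**Figure D1:**
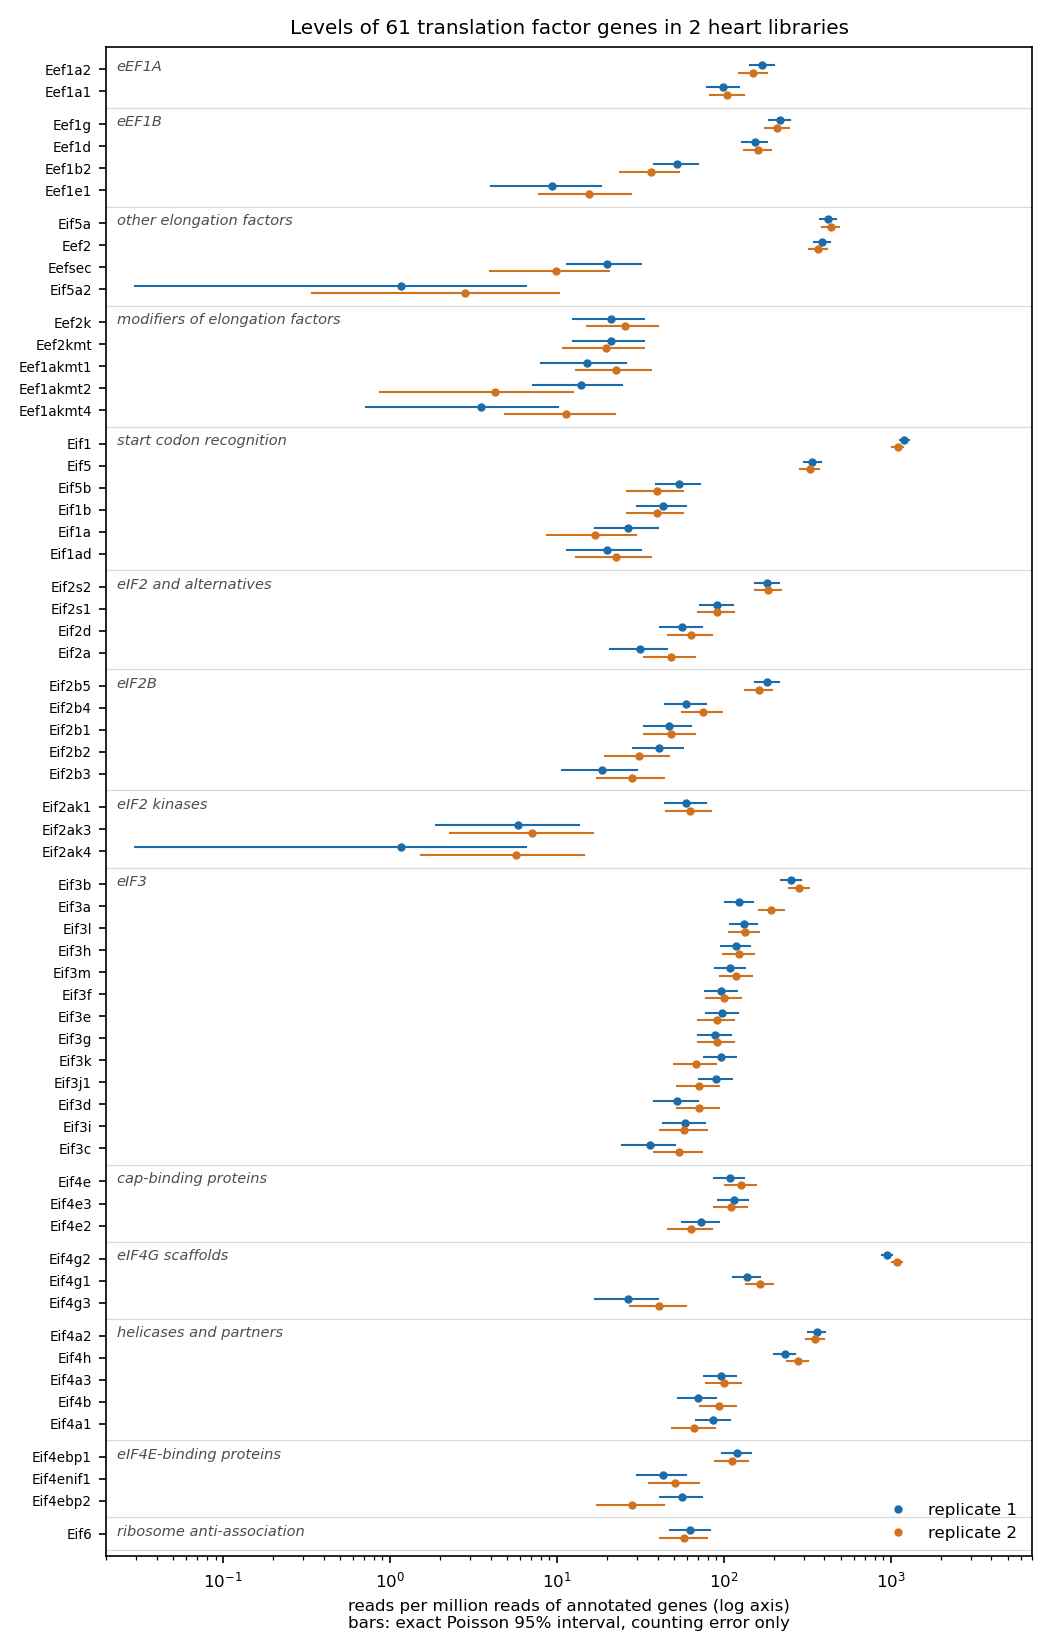
Level of each of the 61 members in CPM on a log axis, by role, with 1 point per library and exact Poisson 95% intervals. Eif1 and Eif4g2 stand to the right of the other members, while the modifiers of elongation factors all sit below 30 CPM.

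Among the factors of start codon recognition, Eif1, which keeps the scanning ribosome from settling on a wrong start codon, was the most abundant member, with 1033 reads in replicate 1 and 776 in replicate 2 (1149 ± 74.9 CPM, SD, n = 2). It lies on chromosome 11 from 100319885 to 100322096. Eif5, the GTPase-activating protein of eIF2, had 291 and 231 reads (333 ± 8.70 CPM). The gap between Eif1 and Eif5 was far larger than the spread of either gene between the libraries. The other 4 genes, Eif5b, Eif1b, Eif1a and Eif1ad, lay between 21.2 and 46.6 CPM. Eif1b, a close relative of Eif1, had 37 and 28 reads, and thus 3.46% (2.52% to 4.73%) and 3.48% (2.42% to 4.99%) of the reads of the pair.

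In eIF2, which brings the initiator tRNA, Eif2s2, the beta subunit, had 156 and 130 reads (183 ± 1.49 CPM) and Eif2s1, the alpha subunit that stress kinases phosphorylate, had 78 and 64 reads (90.6 ± 0.252 CPM). The autosomal eIF2 subunits therefore differed in level in both libraries. Eif2d and Eif2a, which can bring tRNA to the ribosome without eIF2, had 59.7 ± 5.46 CPM and 39.7 ± 11.7 CPM. Of the 5 subunits of eIF2B, which recharges eIF2 with GTP, Eif2b5, the catalytic one, was the highest with 156 and 114 reads (171 ± 14.5 CPM). The other eIF2B subunits lay between 23.4 CPM for Eif2b3 and 67.1 CPM for Eif2b4.

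Of the kinases of eIF2, 1 held most of the reads. Eif2ak1, the heme-regulated kinase, had 51 and 44 reads (60.8 ± 1.99 CPM), or 89.5% (78.9% to 95.1%) and 83.0% (70.8% to 90.8%) of the reads of the kinases. Eif2ak3, the kinase of the endoplasmic reticulum, had 5 reads in each library, and Eif2ak4, the kinase that senses uncharged tRNA, had 1 and 4. Eif2ak2, the kinase activated by double-stranded RNA, had none, under the limits given for a count of 0.

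All 13 measured eIF3 subunit genes, whose products form the scaffold on the small subunit, lay within a range of 5.96-fold. Eif3b was the highest with 217 and 200 reads (268 ± 21.2 CPM), followed on the mean by Eif3a with 106 and 136 reads (158 ± 48.6 CPM). Eif3l had 113 and 94 reads (132 ± 0.915 CPM), Eif3h had 101 and 87 (120 ± 3.80 CPM) and Eif3m had 94 and 84 (114 ± 6.56 CPM). In replicate 1, Eif3l exceeded Eif3a. Eif3l, Eif3h and Eif3m had overlapping counting intervals in each library. The other 8 subunits lay between 44.9 CPM for Eif3c and 98.5 CPM for Eif3f. Eif3j1 held all 77 reads of the eIF3j pair in replicate 1 and 50 of 52 in replicate 2. A transcript of Eif3j2 is 99.4% identical to one of Eif3j1, so that reads of this pair can be split by the counting.

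At the cap, the scaffolds differed most. Eif4g2, a scaffold that lacks the eIF4E-binding region and works without the cap, had 811 and 767 reads (1014 ± 98.8 CPM) and lies on chromosome 7 from 111067750 to 111083030. Eif4g1, the main scaffold of eIF4F, had 118 and 116 reads (151 ± 18.8 CPM), and Eif4g3 had 23 and 29. The share of Eif4g2 within the set was thus 85.2% (82.8% to 87.3%) and 84.1% (81.6% to 86.3%), and that of Eif4g1 was 12.4% and 12.7%. On annotated models alone the mean share of Eif4g2 was 99.2%, and Eif4g1 then had 4 and 5 reads and Eif4g3 1 and 0.

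Of the cap-binding proteins, Eif4e had 93 and 89 reads (117 ± 12.4 CPM), and Eif4e3 had 98 and 78 (112 ± 2.72 CPM). Their order changed between the libraries and their intervals overlapped. Eif4e2, which binds the cap but represses translation, had 63 and 45 reads, or 24.8% (19.9% to 30.5%) and 21.2% (16.3% to 27.2%) of the set.

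Among the eIF4E-binding proteins, Eif4ebp1, a target of mTOR, had 103 and 79 reads (116 ± 5.84 CPM). Eif4ebp2 had 48 and 20 reads, but 47 and 19 of these were on single-exon models of the genomic class, which hold no splice junction, and 1 read in each library was on its annotated model. Eif4ebp1 held 68.2% (60.4% to 75.1%) and 79.8% (70.8% to 86.5%) of the set on all models, and 98.8% as a mean over the libraries on annotated models alone. Eif4enif1, which binds eIF4E and carries it into the nucleus, had 37 and 36 reads.

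The helicase gene Eif4a2 had 309 and 249 reads (356 ± 5.53 CPM), against 74 and 47 for Eif4a1 (76.3 ± 13.9 CPM). Eif4a2 held 80.7% (76.4% to 84.3%) and 84.1% (79.5% to 87.8%) of the pair. A processed pseudogene on chromosome 1, Eif4a-ps4, had 40 reads in each library and is 99.9% identical to an Eif4a1 transcript, so that reads of these 2 genes can be split by the counting. With its reads added to Eif4a1, the mean share of Eif4a2 was 73.6%. Eif4h, a partner that stimulates the helicase, had 198 and 196 reads (254 ± 32.9 CPM). Eif4a3, a helicase of the exon junction complex, and Eif4b, another partner, had 97.9 ± 3.45 CPM and 81.5 ± 16.6 CPM. Eif6, which keeps the ribosomal subunits apart, had 54 and 41 reads.

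Elongation was led by Eif5a and Eef2. Eif5a, the hypusine-bearing factor that helps the ribosome past proline stretches, had 361 and 308 reads (428 ± 10.6 CPM), and Eef2, the translocase, had 331 and 258 (375 ± 14.6 CPM). Eif5a2, a relative of Eif5a, had 1 and 2 reads, or 0.276% (0.0488% to 1.55%) and 0.645% (0.177% to 2.32%) of the pair. Eefsec, which delivers selenocysteine, had 17 and 7 reads.

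Eef1a2 exceeded Eef1a1 in both libraries. Eef1a2 had 145 and 106 reads (159 ± 13.4 CPM) and Eef1a1 had 85 and 74 (102 ± 3.98 CPM). The share of Eef1a2 was 63.0% (56.6% to 69.0%) in replicate 1 and 58.9% (51.6% to 65.8%) in replicate 2, and an equal split lay outside both intervals. Gm26377, a miRNA gene inside Eef1a1 on the same strand, had 4 and 7 reads. With these added to Eef1a1, the share of Eef1a2 was 62.0% (55.6% to 67.9%) and 56.7% (49.5% to 63.6%), and an equal split lay inside the interval of replicate 2. Eef1a1 has 9 near-identical copies in the annotation, and 0 of them had reads. Of the eEF1B subunits, Eef1g had 185 and 148 reads (212 ± 4.39 CPM), Eef1d had 132 and 113 (157 ± 4.26 CPM) and Eef1b2 had 45 and 26. Ndufs1, on the opposite strand over Eef1b2, had 1279 and 1148 reads, and the sources used here do not say how the counting used strand. Eef1e1, which is best known from the multi-tRNA synthetase complex, had 8 and 11 reads. Naprt overlaps Eef1d on the same strand and had 25 and 22 reads of its own.

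The modifiers of elongation factors were all low, from 7.40 to 23.2 CPM over 5 members. They were Eef2k, the kinase that inhibits eEF2, Eef2kmt, which methylates eEF2, and the eEF1A lysine methyltransferases Eef1akmt1, Eef1akmt2 and Eef1akmt4. Eef2k had 18 reads in each library. Eef1akmt2 lies with Fgfr2 on the same strand, and Fgfr2 had 40 and 62 reads.

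**Figure D2:**
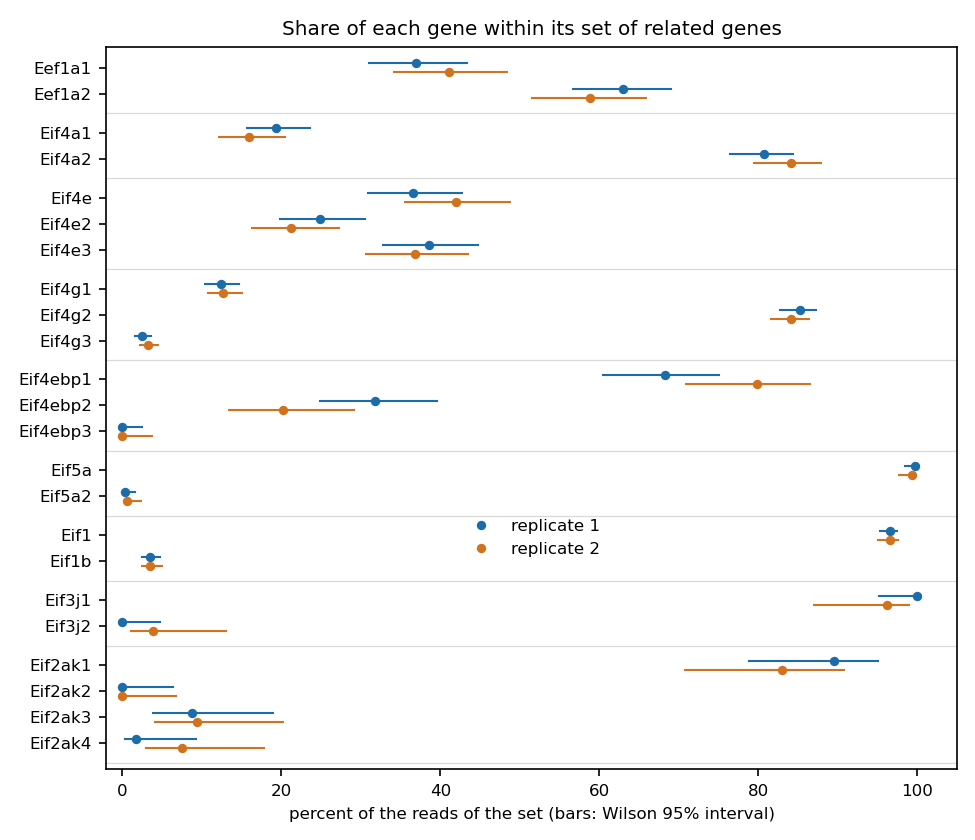
Share of each gene in the reads of its set of related genes, in percent, with 1 point per library and Wilson 95% intervals. Eif4g2, Eif4a2, Eif5a, Eif1, Eif3j1 and Eif2ak1 held over 80% of their sets in both libraries, whereas Eif4e and Eif4e3 overlapped.

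The study design left 1 comparison between samples, that of the replicates. An exact conditional binomial test was run on 9334 genes, each with 10 or more reads over both libraries. Of these, 1.15% passed at a Benjamini-Hochberg adjusted p below 0.05 and 0.321% were called, with a fold of at least 2 as well. Of the 59 members tested, 0 passed and 0 were called, and 3 had an unadjusted p below 0.05, or 5.08%, beside 8.53% of all genes. In edgeR's exact test with a preset variation of 0.1 and 0.2, 0 members passed, with 2 and 0 at an unadjusted p below 0.05. Of all 9334 genes, 0.129% and 0.0429% passed that test, and their share at an unadjusted p below 0.05 was not counted. The median log2 ratio of replicate 2 over replicate 1 was 0.05 over the members and 0.05 over all genes. Of the members, 83.1% were within 1.5-fold, beside 76.7% of all genes.

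The 3 members with an unadjusted p below 0.05 were Eif3a, Eif4g2 and Eif4ebp2. Eif3a, the largest of the eIF3 subunits, had 106 reads in replicate 1 and 136 in replicate 2, which was 1.56-fold higher in replicate 2 (exact 95% interval 1.20 to 2.03, adjusted p = 0.0521 in the exact binomial test). It passed on annotated models alone, with 75 and 111 reads (adjusted p = 0.0109), and among genes with at least 50 reads (adjusted p = 0.0273), and did not under the other alternatives. Over the 8892 tested genes with an annotated read, the log2 ratio was higher by 0.08 per doubling of transcript length, and the leading Eif3a transcript has 5125 bases. With that trend removed, the log2 ratio of Eif3a was 0.50 in place of 0.64, with an adjusted p of 0.324 in the same test. The part of length in the ratio was not tested.

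Eif4g2 was 1.15-fold higher in replicate 2 (1.04 to 1.27, adjusted p = 0.231 in the exact binomial test). Eif4ebp2 was 1.98-fold higher in replicate 1 (1.15 to 3.52, adjusted p = 0.302 in the same test), on the genomic reads named above. Members at 2-fold or more were Eef1akmt2 with 12 and 3 reads, Eef1akmt4 with 3 and 8, and Eefsec with 17 and 7. Their intervals all included equal levels.

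**Figure D3:**
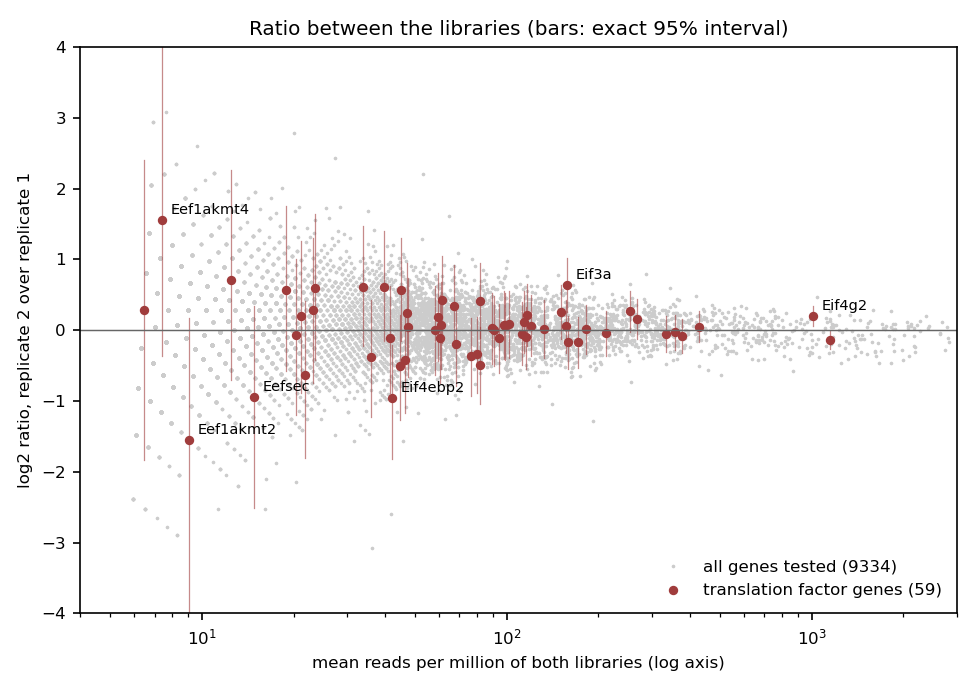
Log2 ratio of replicate 2 over replicate 1 against the mean level in CPM on a log axis. Dark points are the 59 members tested with exact 95% intervals and pale points are all 9334 genes tested, of which 36 lie outside the plotted range. The members lie on both sides of 0, and Eif3a sits highest among the members above 100 CPM.

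Of the other genes of translation, a list of 41 with release, recycling, mitochondrial and signalling factors, all had reads in at least 1 library and 0 of 40 tested passed. The median log2 ratio was 0.13. The highest on the mean was Mknk2, a kinase of eIF4E, with 352 and 306 reads, followed by Paip2, an inhibitor of the poly(A)-binding protein, with 354 and 249, and their order changed between the libraries. Gfm1 and Tufm, elongation factors of mitochondria, had 165 and 183 reads, and 166 and 155 reads. On the X chromosome, and outside the members, Eif1ax had 81 and 62 reads and Eif2s3x, the gamma subunit of eIF2, had 52 and 51.

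Most reads of the members followed a known transcript. The annotated classes held 82.6% of members' reads in replicate 1 and 82.1% in replicate 2, beside 76.0% and 75.7% over all annotated genes. Models classed as matching an annotated transcript but lacking its 5′ part held 9.07% and 9.64%, beside 7.58% and 7.64%. Some models of this class still begin at or near the 5′ end of the gene, such as the most used one of Eif4g2. The genomic class held 2.16% and 1.33%, beside 5.13% and 5.25%. Single-exon reads of some members were classed as genomic in replicate 1 and as incomplete matches of an annotated transcript in replicate 2. For Eif4a2, 12 and 0 such reads were genomic and 0 and 9 were incomplete, and for Eif4h 12 and 0, and 0 and 7. The shares of the genomic class are therefore not directly comparable between the libraries. Of reads on annotated models, 99.6% in each library were on protein-coding models, beside 97.8% and 98.1% over all protein-coding genes. Those on nonsense-mediated decay models were 2 in each library, and those on retained-intron models were 14 and 13.

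The annotated share varied widely between members. Among the 30 with at least 50 reads in each library, the lowest were Eif4g1 with 4 of 118 and 5 of 116 reads, Eef1d with 74 of 132 and 53 of 113, Eef2 with 165 of 331 and 159 of 258, Eif4e with 57 of 93 and 55 of 89, and Eif4b with 41 of 60 and 41 of 66. The highest were Eif2s2 with 154 of 156 and 130 of 130, Eif1 with 1015 of 1033 and 762 of 776, Eif3f with 81 of 83 and 69 of 71, Eif3e with 82 of 84 and 62 of 64, and Eif2s1 with 75 of 78 and 62 of 64. Across these 30 genes, which share their libraries, Spearman's rho between the length of the leading model and the annotated share was -0.38 in replicate 1 and -0.29 in replicate 2, as a description.

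The low genes were low for different classes. In Eif4g1, models without the 5′ part held 88 and 76 reads, and the most used of them, with 24 exons, had 13 reads in each library. In Eef2, such models held 129 and 74 reads. In Eef1d, new combinations of known splice sites held 47 and 53 reads. In Eif4e, models with a new splice site held 28 and 22 reads.

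Eif4enif1, below 50 reads, had 10 annotated reads in each library, and a combination of known splice sites in 19 exons had 14 and 12. For the share on annotated models, 48 members were tested with Fisher's exact test and 0 were called, where 0.129% of 4651 genes were. Without adjustment, 1 member was below 0.05.

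**Figure D4:**
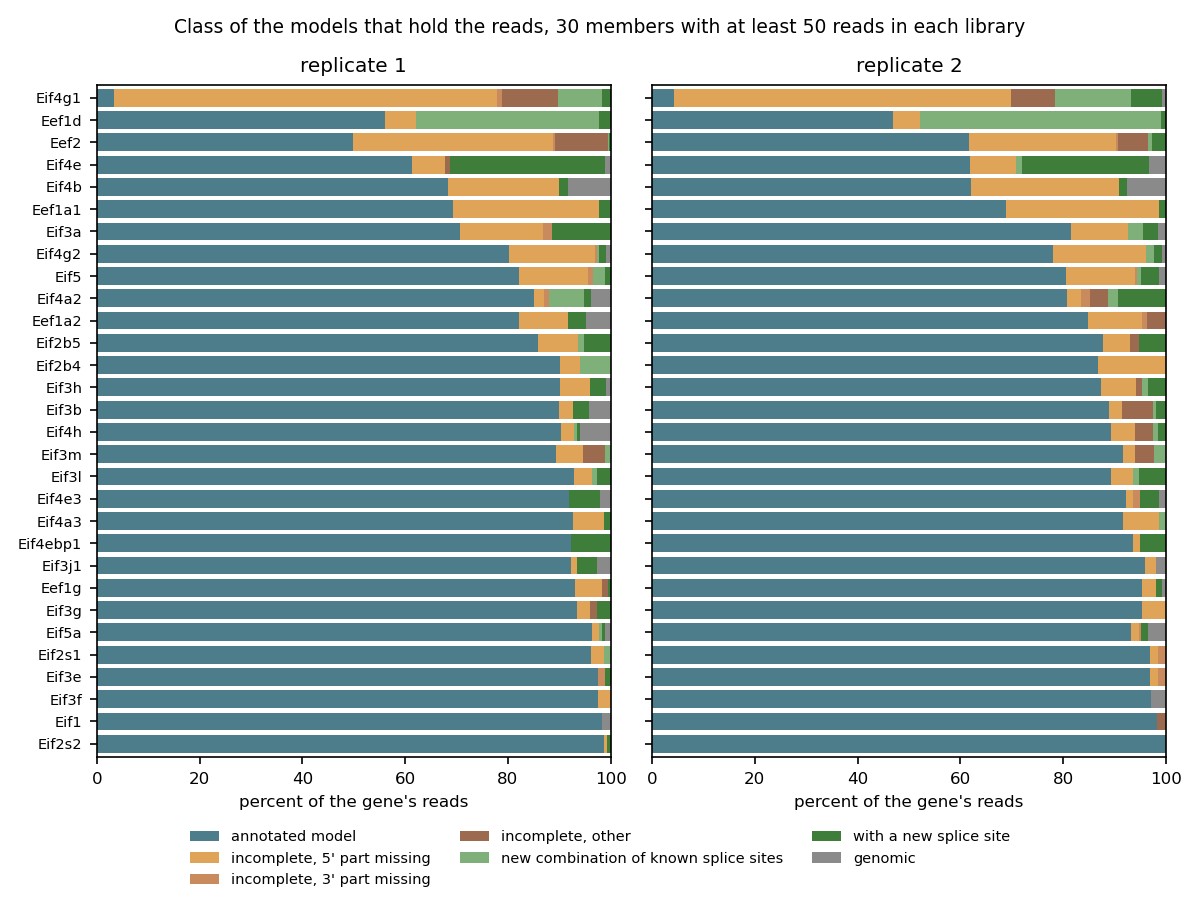
Percent of each gene's reads by class of model, in 2 panels for the libraries, for the 30 members with at least 50 reads in each. Eif4g1 at the top had almost no annotated reads, Eef1d had a large block of new combinations and Eif4e a block with a new splice site, in both libraries.

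Of 371 unannotated spliced models of members in replicate 1, matched by their introns, 155 were also found in replicate 2, which had 358. These shared models held 74.6% and 73.8% of the reads on unannotated spliced models. Unannotated here includes incomplete matches of an annotated transcript, so these shares are not the recurrence of new splice forms alone. Models classed as lacking the 5′ part held 9.07% and 9.64% of all member reads. New combinations held 2.57% and 2.83%, and models with a new splice site 2.20% and 2.44%. Counting annotated models alone, 26 members had 50 or more reads in each library, and 0 of them had a second model of at least 20% in both. Eif4h and Eif4a2 came close, as their second models held 19.6% and 20.0%, and 19.8% and 26.4%. Of the 6 members tested for use of the leading model with Fisher's exact test 0 were called, and 1 had an unadjusted p below 0.05, where 0.0964% of 1037 genes were called.

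Counted by splice junctions over all models, 15 events in 11 members had at least 10 reads on each form over both libraries. They were 8 cassette exons, 5 alternative acceptors and 2 alternative donors, and in 15 of 15 the Wilson intervals of the 2 libraries overlapped. Of these, 8 lay within coding sequence in each protein-coding model that holds them, and 8 of 8 had a length that is a multiple of 3. Of the other 7, 3 had such a length. An exon inside which an annotated reading frame ends counts among the other 7, so the grouping itself bears on these lengths. No conclusion was drawn from the contrast. These events were picked by their reads after the data had been examined.

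In Eif4h, the exon of 60 bases printed above was in 37 of 182 spliced reads in replicate 1 and 38 of 183 in replicate 2, or 20.3% (15.1% to 26.8%) and 20.8% (15.5% to 27.2%). In Eif4g2, the exon of 114 bases was in 88.7% (86.3% to 90.7%) and 87.1% (84.5% to 89.3%). It was skipped in 89 and 96 reads, of which 84 and 90 were on a single model of 21 exons that the deposited table classed as incomplete at its 5′ end. That model reaches 111083017 on chromosome 7, and the gene, on the minus strand, begins at 111083030.

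Eef1d, the delta subunit of eEF1B, had 3 main forms around the exons of 72 and 57 bases, over the 124 and 107 reads that reach the exons on both sides. The exon of 72 bases without that of 57 was in 65 and 47 reads. Both exons were in 47 and 52 reads, of which 39 and 43 belonged to 1 unannotated model. Neither was in 10 and 7 reads, and the exon of 57 bases alone was in 1 read of each library. Over all these reads, the exon of 72 bases was held in 90.3% (83.8% to 94.4%) and 92.5% (85.9% to 96.2%), and the exon of 57 bases in 38.7% (30.6% to 47.5%) and 49.5% (40.2% to 58.9%). An annotated transcript, Eef1d-213, also holds both exons. The unannotated model, which has 9 exons, was the second most used unannotated spliced model among the members.

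In Eif4a2, the acceptor that keeps CAG was used in 60 of 289 and 60 of 232 reads, or 20.8% (16.5% to 25.8%) and 25.9% (20.6% to 31.9%). An exon of 111 bases near the end of the gene, at chr16:23112351-23112461, was in 21 reads of each library, or 7.50% (4.96% to 11.2%) and 9.25% (6.13% to 13.7%), and its donor is not in the annotation. Annotated models have an exon with the same start and another end, and their reading frame ends inside it. The same model of 12 exons, with 16 and 19 reads, was classed as a new combination in 1 library and as having a new splice site in the other. In Eif4g1 the acceptor that keeps CAG was used in 37.3% (26.7% to 49.3%) and 40.5% (30.1% to 51.9%) of reads.

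In Eif4enif1, the coding exon of 72 bases was in 27 and 22 reads and skipped in 5 and 6. A stretch of 57 bases at an acceptor of Eif4g3 was kept in 14 and 14 reads and spliced out in 5 and 8. In Eif4e2, an exon of 79 bases, inside which the reading frame of the annotated transcript that holds it ends, was in 13 of 44 and 17 of 40 reads.

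Outside coding sequence, an exon of 94 bases in the 5′ UTR of Eif5a was in 4.34% (2.64% to 7.03%) and 5.30% (3.24% to 8.56%) of reads. A stretch of 139 bases in the 5′ UTR of Eif5 was kept in 275 and 210 reads and spliced out in 9 and 10. In Eif4e, a donor that is not in the annotation was used in 28 of 86 and 22 of 79 reads. It ended the first exon of a model of 4 exons that begins at 138550326 on chromosome 3, the last base of an annotated inner exon, so these reads lacked the exons before it.

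**Figure D5:**
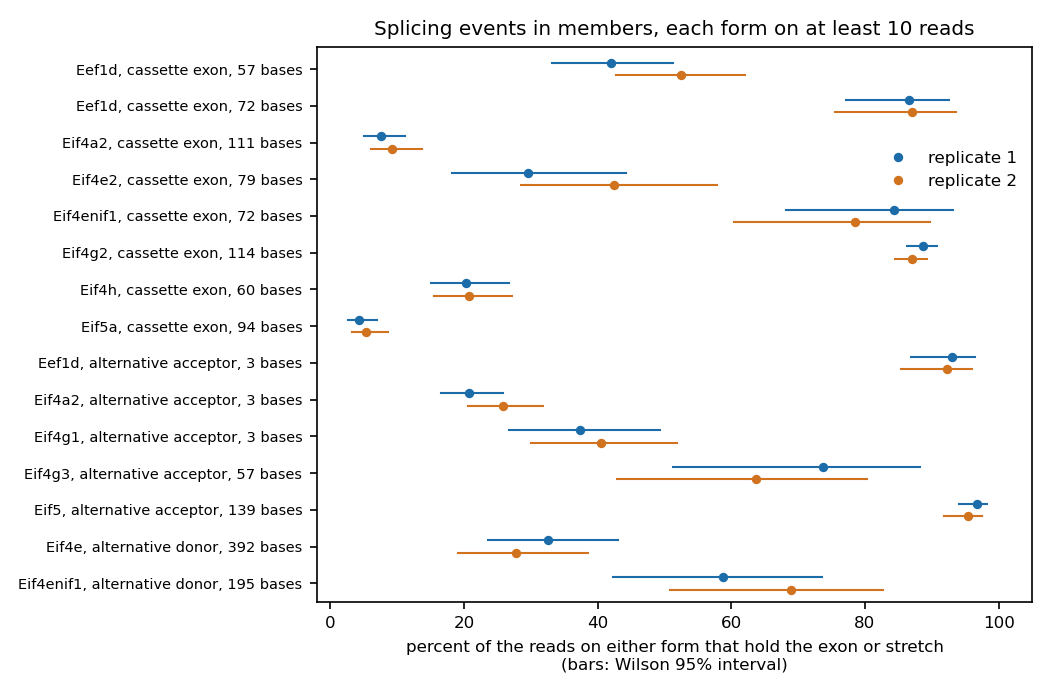
Percent of reads that hold the optional exon or stretch, among reads on either of the 2 junction forms compared in each of the 15 events, with 1 point per library and Wilson 95% intervals. For the exons of Eef1d this leaves out reads of the other forms of that region. The 2 libraries overlap in each row, and shares run from under 10% in Eif5a and in the exon of 111 bases of Eif4a2 to over 90% in the acceptors of Eef1d (3 bases) and Eif5.

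Many mRNAs of the translation machinery begin with a C and a run of pyrimidines, the 5′ terminal oligopyrimidine motif through which mTOR controls them. In RefSeq promoters (build GRCm38.p6), 49 of the 61 members were found. At the annotated start, 1 of 49, Eif3f, had a C followed by at least 4 bases that are C or T, or 2.04%, beside 3.01% of 27025 genes. Allowing the motif to begin within 5 bases either side, 12 of 49 had it, or 24.5%, beside 21.2% of all genes. The motif was read on the sense strand, and a match is a description of these letters. Whether transcripts in these libraries begin at the annotated starts was not tested. A match or its absence therefore does not show how the mRNA of a gene begins. The windows of Eif3f and Eef1a1 are printed because theirs were the longest runs, with the run in capitals.
Eif3f, chr7:108934401-108934430, plus strand: ctgttctaggCTCTCTCTCTTTCTCggcaa
Eef1a1, chr9:78481710-78481739, minus strand: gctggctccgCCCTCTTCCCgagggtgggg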

How the data were processed

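Long-read RNA sequencing of 2 heart libraries was used. The deposited counts were whole reads per transcript model, 1 column per library, not normalized and not pooled, per the file headers. The submitters' text names mm10 as the build, and models carried GENCODE M21 identifiers or TALON classes, per the file headers. Which aligner, versions and filters were used is not given in the sources used here. Model lengths, exon numbers and model coordinates came from the deposited tables and annotation files.

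Reads of all models were summed per gene, without spike-ins, and scaled to CPM by totals of 859191 and 707758 reads. A gene entered the test between libraries with 10 or more reads over both. The exact conditional binomial test was two-sided, with the share of each library in all reads as its null and with Benjamini-Hochberg adjustment. The threshold was an adjusted p of 0.05, and a fold of 2 for a call. Isoform use (at least 20 annotated reads in each library, leading model below 95%) and annotated share (at least 20 reads) used Fisher's exact test. Log2 ratios had 0.5 reads added. Shares carry Wilson 95% intervals. With 1 group of 2, edgeR's quasi-likelihood test has no residual degrees of freedom, so its exact test with preset variation was an alternative. In simulated libraries of 8960 genes, 41.4% of genes changed by 2-fold and 93% of those changed by 4-fold passed, and 27.3% and 93% were called. The simulated counts held counting error only. The changed genes were drawn at random from all genes tested, so these rates are not those of the members.

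A gene counted as a near-identical copy when minimap2 2.31-r1302 aligned a transcript of it to one of the member with 95% identity or more, covering 80% or more of the transcript of the copy. Splicing events needed at least 10 reads on each form. Spliced models were matched between libraries by their introns. Start motifs were read from RefSeq promoters, GRCm38.p6, and of 64 promoter rows of members 55 had bases 6 to 25 after the start inside a GENCODE M21 transcript of the gene.

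Every member with a mean of at least 100 CPM was named, with the members of paralog sets, the 5 lowest and 5 highest annotated shares, and any member past a test. Names beyond this rule were picked with their values in view. The members, gene lists, roles and tests were chosen with earlier results of these data known. Alternatives covered scaling (DESeq2 size factors, and TMM of edgeR), other read minimums, annotated models only, added reads, preset variation, near-identical copies and each replicate left out. Removal of the length trend, a minimum of 20 reads for events and the sum of Gm26377 with Eef1a1 were alternatives added after seeing the data. Software was Python 3.11.15, scipy 1.17.1, numpy 2.4.6, pandas 2.3.3, matplotlib 3.10.9, R 4.3.3, edgeR 4.0.16 and DESeq2 1.42.0.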

Additional observations from a re-analysis of the deposited data

Results flagged for a closer look

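Some reads lie outside the members and above the 3 reads that a count of 0 allows, in both libraries. The X-linked Eif1ax had 81 reads in replicate 1 and 62 in replicate 2, and the X-linked Eif2s3x had 52 and 51. The processed pseudogene Eif4a-ps4 had 40 reads in replicate 1 and 40 in replicate 2.

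Unannotated models on the strand opposite to a member also held reads. There were 5 and 11 such reads over Eif3h, 11 and 9 over Eif4e, 4 and 6 over Eif4g2, and 9 and 5 over Eif4g3.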

How the results depend on the processing

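Depth limits the low members, since 1 read was 1.16 and 1.41 CPM. With 1 library left out there is no comparison between libraries, so such settings were run for levels and shares only. Of 172 alternative values, 150 kept their direction, their side of the threshold, or moved by less than the spread between replicates. Values with 1 replicate left out always fall within that spread, so they count among the 150 by construction. They do not bear on how stable the results are. The number of members that passed was 0, and 1 (Eif3a) on annotated models only or with at least 50 reads in total, because its adjusted p fell to 0.0109 and 0.0273. Over its 9 alternatives that p ran from 0.0109 to 1. On annotated models only, 54 members were tested, and 1.01% of 7341 genes passed. With at least 50 reads in total, 48 members were tested, and 2.68% of 4397 genes passed. The median log2 ratio of the members above 100 CPM was 0.034, and -0.0088 with TMM factors and -0.044 with DESeq2 size factors, beside 0.0033 and -0.032 over all genes. On annotated models only, the family held 0.87% of reads in place of 0.801%, and 0.823% of the reads of nuclear protein-coding genes. On annotated models only, Eef1a2 held 65.3% in place of 61.0%, Eif4e 34.9% in place of 39.3%, Eif4g2 99.2% in place of 84.6%, Eif4ebp1 98.8% in place of 74.0% and Eif1 96.8% in place of 96.5%. With near-identical copies added, Eif4a2 held 73.6% in place of 82.4%. With genomic models left out, annotated models held 83.8% of member reads in place of 82.3%. A second model of at least 10% was found in 2 members in place of 0. Start motifs within 5 bases were found in 24.5% of members in place of 2.04%. With 20 reads on each form, 10 of 15 events were left. No paired analysis was possible because there is 1 group.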
